A study of Mus musculus with 1753 samples.

Results

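The neurotrophin and GDNF ligands and receptors were represented by 9 genes out of the 46517 genes in the skeletal muscle table. These 9 were chosen by name, with earlier results of these data known. They are the ligands Bdnf, Ntf3 and Gdnf, the neurotrophin receptors Ngfr, Ntrk2 and Ntrk3, and the GDNF receptor Ret with its co-receptors Gfra1 and Gfra2. All 9 were matched to a row by Ensembl identifier. A further 38 genes of the same pathways are described after them as a wider list.

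Neurotrophins are secreted growth factors that keep neurons and glia alive and guide their axons. They bind the Trk receptor tyrosine kinases, each with its preferred ligands, and all of them, also as uncleaved pro-forms, can bind Ngfr, the low-affinity receptor p75. GDNF family ligands are held at the cell surface by a lipid-anchored co-receptor of the Gfra group, and this complex engages the kinase Ret. In skeletal muscle these factors are best known as supply for motor and sensory neurons, which reach the tissue through nerves wrapped in connective tissue.

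Single cells came from adult male mice aged 10-20 weeks, and the labels gave each of 1753 cells to 1 of 10 clusters and 1 of 5 strain labels. C57BL6 (373 cells) carries no reporter. Acta2GFP (157), Cspg4dsRED (181) and PdgfrbGFP (630) carry a fluorescent reporter driven by the promoter of the gene in the name, and "PdgfraGFP - PdgfrbGFP pool" (412 cells, called the pool here) mixes cells of a pair of reporter strains. Cells had been sorted for a PDGF receptor or a reporter and against CD31, an endothelial surface protein. The mice thus differ by reporter and sort, and Acta2GFP also by elastase added to release the cells, but not by a treatment. Endomysial fibroblasts, which lie around single muscle fibres, are clusters 1, 3, 5, 6 and 8; perimysial fibroblasts, around fibre bundles, are clusters 2 and 9; paramysial fibroblasts are cluster 4, and mural cells, the contractile cells of vessel walls, are cluster 7. Cluster 10 was treated as a class of its own.

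Values are counts of reads scaled to 500000 per cell, spike-ins left out, and a cell is said to carry a gene at 100 scaled counts or more. A strain label stands for 1 replicate where it holds at least 3 cells of the group. The labels name no animal, so the spread between strain labels may be partly technical. The median cell had 258251 counts (lowest 46097, highest 1055869), and Cspg4dsRED was the shallowest strain label, at a median of 121646. The clusters had been drawn from these same counts, so levels by cluster are given as a description. Fibroblast markers summed to 10726 to 12858 scaled counts in cluster 10, mural markers to 17.4 to 92.8 there and to 3665 to 5824 in cluster 7.

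The family fell into a few patterns, laid out in the map of shares by cluster. Ngfr was concentrated in cluster 10. Gfra1 and Gfra2 peaked in that cluster too, but each also marked a separate set of fibroblasts. Ret belonged to clusters 3 and 1. Ntrk2 was spread over endomysial and mural cells, and Ntf3 over mural cells and part of the endomysial clusters. Bdnf, Ntrk3 and above all Gdnf were rare.

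**Figure D1:**
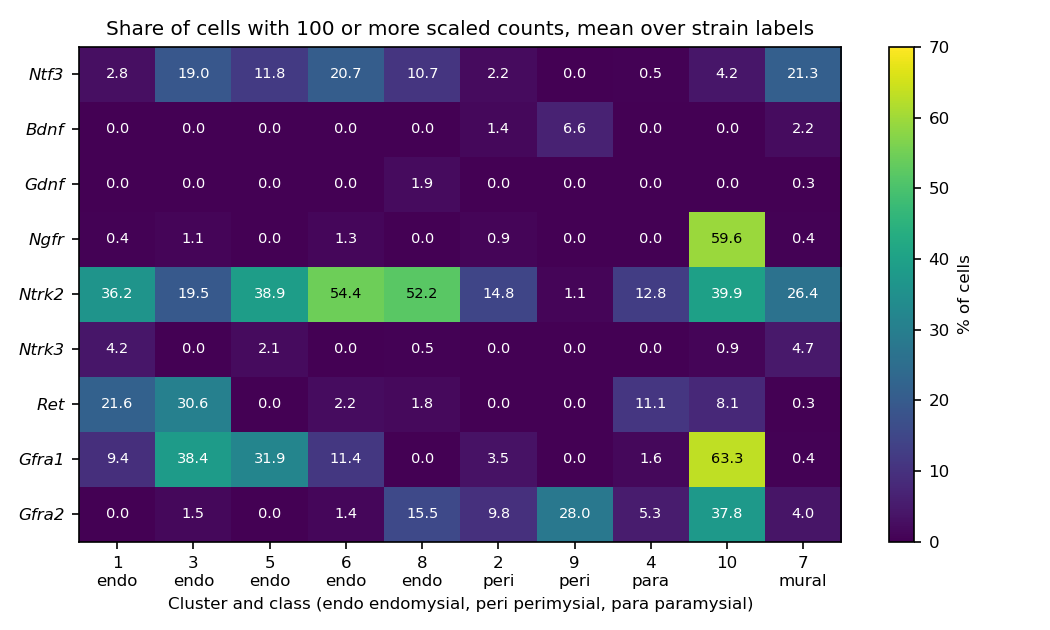
Share of cells (%) with 100 or more scaled counts of each member (rows) in each of the 10 clusters (columns), averaged over the strain labels with at least 3 cells. Ngfr stood at 59.6% in cluster 10 and at 1.32% or less elsewhere, and Ret was highest in clusters 3 and 1.

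Ngfr and Gfra1 had their highest shares in the same cluster, and the sequences before their RefSeq starts are shown here for that reason. Of the 9 members, 6 had an entry in the RefSeq promoter table (GRCm38.p6), and Ret, Gfra2 and Ntrk3 had none. The 250 bases before the RefSeq start are given 5′ to 3′ on the strand of the gene, for Ngfr from chr11:95587699-95587948 (minus strand) with matches to GGGCGG, the GC box, in capitals, and for Gfra1 from chr19:58455399-58455648 (minus strand) with matches to CANNTG, the E-box, in capitals. Both strands were searched, and overlapping matches were counted. The GENCODE M21 span of Gfra1 begins further upstream, at 58455909, so its whole window lies inside that span. The span of Ngfr begins at 95587735, inside its window.
Ngfr: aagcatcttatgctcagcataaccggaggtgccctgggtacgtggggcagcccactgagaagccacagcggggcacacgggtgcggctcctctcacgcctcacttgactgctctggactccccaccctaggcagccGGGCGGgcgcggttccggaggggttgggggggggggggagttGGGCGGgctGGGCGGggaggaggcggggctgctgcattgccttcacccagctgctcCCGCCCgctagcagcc
Gfra1: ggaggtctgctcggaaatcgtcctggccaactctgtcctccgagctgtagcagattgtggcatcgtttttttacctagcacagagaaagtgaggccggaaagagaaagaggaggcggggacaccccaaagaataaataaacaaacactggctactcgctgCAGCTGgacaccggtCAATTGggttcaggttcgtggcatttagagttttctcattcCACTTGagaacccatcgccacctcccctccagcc
The Ngfr window held 70.4% G and C, against a median of 52.4% over all 32851 windows of that length, and 4 matches to GGGCGG. At least 3 such matches were found in 8.47% of all windows and any match in 32.7%. The Gfra1 window held 52.4% G and C, no match to GGGCGG and 3 matches to CANNTG, which 12.2% of windows held at least 3 times. The Ngfr window held 2 matches to CANNTG, a motif present in 66.2% of windows. Neither window held TATAAA, found in 12.4% of windows, nor AACAAT, a SOX-type core found in 9.42%.

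Ngfr (ENSMUSG00000000120, chromosome 11, 95568818 to 95587735, minus strand, GRCm38) encodes p75. In cluster 10 its mean scaled count was 112 in Cspg4dsRED (37 cells), 323 in the pool (17 cells) and 518 in PdgfrbGFP (8 cells). All 3 strain labels with cells of this cluster were high, and the lowest of them had the shallowest cells, with a median depth of 139612 counts against 380794 in the pool and 270478 in PdgfrbGFP. The share of cells carrying Ngfr was 32.4%, 58.8% and 87.5% in that order, or 59.6% ± 27.5 (SD, n = 3). With each cell thinned to 50000 counts it was 60.8%. Among the 29 carrying cells, 46.8% of the cluster (exact binomial 95% interval 34.0 to 59.9%), levels ran from 176 to 1080 with a median of 309.

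Outside cluster 10 the next highest shares were 1.32% ± 0.97 in cluster 6 (n = 4) and 1.06% ± 1.28 in cluster 3 (n = 4). No cell of clusters 4, 5, 8 or 9 carried Ngfr, which allows shares of up to 5.00%, 9.68%, 1.19% and 5.08% by counting error alone. Cluster 10 held 72.5% of the 40 carrying cells in the whole series while making up 62 of 1753 cells. Of mural cells 1 in 187 carried it. C57BL6 and Acta2GFP had no cell in cluster 10, so this cluster was measured in reporter strains only, where sort and strain cannot be told apart.

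Ngfr is a known marker of Schwann cells and other nerve-associated cells, and marker lists of these were read in cluster 10. Of 10 Schwann cell markers, 1 was carried by at least 10% of cluster 10 cells: the adhesion gene Cdh19, at a mean of 144 scaled counts and in 50.7% of cells, against a mean of 3.26 in the other fibroblasts. Erbb3 and Foxd3, which define the lineage, had 0 counts in the cluster, and Sox10 had 6. The list summed to 78.1 to 216 in cluster 10 and to 8.79 to 23.1 in the other fibroblasts. Of 4 endoneurial fibroblast markers, 3 passed that share: Sox9 at 399 against 25.2, Osr2 at 484 against 35.4 and Etv1 at 72.3 against 18.4. Wif1 was the exception, at 0.816 against 74.3. That list summed to 794 to 1197, against 93.4 to 241. Of 4 perineurial markers 1 passed, the tight junction gene Cldn1, at 104 and in 23.3% of cells, against 21.5 and 2.44% in the other fibroblasts. Itgb4 was lower in cluster 10, at 0.0150 against 19.2, and Slc2a1 stood at 24.4 against 26.5. Msln was at 0 in cluster 10 and at 0.0778 in the other fibroblasts, and the list's sums of 73.4 to 227 lay within the 10.1 to 272 of the other fibroblasts. Both epineurial fibroblast markers were lower in cluster 10, Pcolce2 at 2.36 against 201 and Clec3b at 38.5 against 107. That list summed to 23.1 to 62.8, against 146 to 445. All 4 satellite cell markers and 3 of 4 neuron markers were at 0. The part of these cell types in the Ngfr values was not tested. The 5 genes whose cluster and strain pattern was most like that of Ngfr were Myh14, A2m, Gjc3, Pilrb2 and 6030408B16Rik, with Pearson r between 0.844 and 0.877 over 37 groups of cells that share libraries and depth.

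Ret (ENSMUSG00000030110, chromosome 6, 118151745 to 118197718, minus strand) is the receptor tyrosine kinase of the GDNF family. In cluster 3 its mean scaled count was 105 in Acta2GFP (39 cells), 77.9 in C57BL6 (57), 122 in the pool (163) and 84.4 in PdgfrbGFP (179). The 4 strain labels lay within a narrow range, and the share of carrying cells was 33.3%, 19.3%, 41.7% and 27.9% in that order, or 30.6% ± 9.41 (SD, n = 4). Cluster 1 followed at 21.6% ± 10.4 (n = 4), with mean counts of 61.1 in Acta2GFP, 23 in C57BL6, 66.9 in the pool and 48.2 in PdgfrbGFP. The mean count was higher in cluster 3 in all 4 strain labels, by 47.5 ± 9.36 (SD of the differences), and the share was higher in 3 and equal in Acta2GFP, by 8.93 percentage points ± 6.44. Cluster 4 at 11.1% ± 15.7 and cluster 10 at 8.09% ± 7.01 followed, and the order of these 2 was the opposite in both strain labels that held them.

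No perimysial cell carried Ret, at 0 of 328, which allows a share of up to 0.915%, and 1 of 187 mural cells did. Within the endomysial class the clusters differed. Clusters 6 and 8 stood at 2.25% ± 2.04 and 1.76% ± 2.36, and cluster 5 at 0 of 31 cells. Among the 142 carrying cells of cluster 3, which were 72.1% of all cells carrying Ret, levels ran from 101 to 913 with a median of 238. The genes of most similar pattern were Tek, D630033O11Rik, Plau, Sdc2 and Ces1d, with r between 0.767 and 0.828 over the same 37 groups. Tek encodes an angiopoietin receptor, Plau a plasminogen activator and Sdc2 a heparan sulfate proteoglycan.

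**Figure D2:**
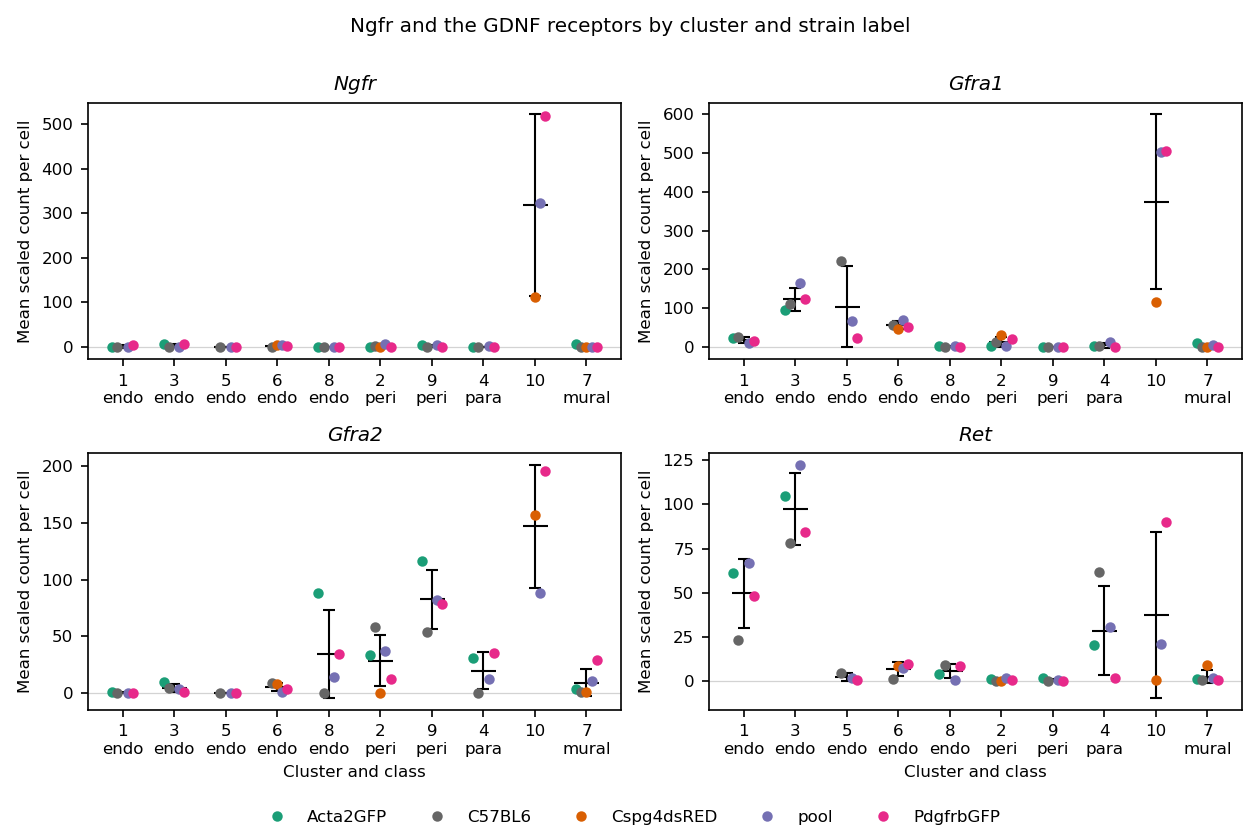
Mean scaled count per cell of Ngfr, Gfra1, Gfra2 and Ret by cluster, 1 point for each strain label with at least 3 cells, with the mean and SD over strain labels in black. The 3 strain labels of cluster 10 spread from 112 to 518 for Ngfr, and the 4 of cluster 3 from 77.9 to 122 for Ret.

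Gfra1 (ENSMUSG00000025089, chromosome 19, 58235604 to 58455909, minus strand) binds GDNF itself. Cluster 10 had mean scaled counts of 115 in Cspg4dsRED, 503 in the pool and 506 in PdgfrbGFP, with 32.4%, 82.4% and 75.0% of cells carrying it. As for Ngfr, Cspg4dsRED was the lowest of the 3. Cluster 3 had 94.0 in Acta2GFP, 111 in C57BL6, 164 in the pool and 123 in PdgfrbGFP, and a share of 38.4% ± 7.12 (n = 4), against 63.3% ± 27.0 in cluster 10 (n = 3). In both strain labels with cells of both clusters, the pool and PdgfrbGFP, cluster 10 was higher, by 36.6 percentage points ± 2.96 in share, while Cspg4dsRED, with fewer than 3 cells of cluster 3, had a cluster 10 share within the range of cluster 3. Cluster 5 stood at 31.9% ± 18.8 (n = 3) and cluster 6 at 11.4% ± 3.29 (n = 4), but their ranges overlapped. Of the 3 strain labels with both clusters, 2 had the higher share in cluster 5 and PdgfrbGFP the lower, at 12.5% against 13.6%, and the pool held 3 cells of cluster 5. No cell of clusters 8 and 9 carried Gfra1. The gene most like it in pattern was Gm16277 (r = 0.851), a gene on the opposite strand that overlaps 7.6% of its exonic bases. The library kit does not mark strand, so reads from this overlap cannot be told apart. Myocos and Myoc followed, at r of 0.748 and 0.746.

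Gfra2 (ENSMUSG00000022103, chromosome 14, 70890120 to 70979838, plus strand) prefers neurturin. It followed a different set of cells. Cluster 10 had mean counts of 157 in Cspg4dsRED, 88.4 in the pool and 195 in PdgfrbGFP, and a share of 37.8% ± 2.63 (n = 3), the most even of the 3 receptors there. The perimysial cluster 9 had 116 in Acta2GFP, 53.7 in C57BL6, 81.6 in the pool and 78.3 in PdgfrbGFP, and a share of 28.0% ± 10.3 (n = 4), whose range overlapped that of cluster 10. Cluster 8 stood at 15.5% ± 16.3, with 87.9 in Acta2GFP and 0.226 in C57BL6, and cluster 2 at 9.82% ± 7.34. In clusters 1 and 5 no cell carried it, and in cluster 3 the share was 1.53% ± 0.848. Fam213a had the most similar pattern (r = 0.833), followed by A930001C03Rik, St8sia2, Spp1 and Sertad2.

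The co-receptors were then read in the same cells as Ret, since the complex needs both. In cluster 3, 72 of 142 cells carrying Ret also carried Gfra1, or 50.7% (exact binomial 95% interval 42.2 to 59.2%), against 35.2% (29.8 to 41.0%) of the 298 other cells. Cells carrying Ret were somewhat deeper, at a median of 308972 counts against 265550. The share with Gfra1 was higher among cells carrying Ret in C57BL6 (45.5% against 37.0%), the pool (58.8% against 40.0%) and PdgfrbGFP (48.0% against 31.8%), and lower in Acta2GFP (23.1% against 34.6%). The mean difference was 8.00 percentage points ± 13.7 (SD, n = 4), smaller than the spread between strain labels. In cluster 1, 2 of 32 cells carrying Ret also carried Gfra1 (6.25%), beside 8 of the 129 others (6.20%). Gfra2 was carried by none of the 142 cells with Ret in cluster 3, which allows a share of up to 2.11%, and by 5 of the 298 others (1.68%). It was carried by 2 of all 197 cells carrying Ret, or 1.02% (0.123 to 3.62%). Gfra1 and Gfra2 met in cluster 10, where 10 of 32 cells carrying Gfra1 also carried Gfra2, beside 14 of the 30 others.

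Within cluster 10, Gfra1 was carried by 17 of 29 cells with Ngfr, or 58.6% (38.9 to 76.5%), and by 45.5% (28.1 to 63.6%) of the 33 others. The figures were 25.0% against 36.0% in Cspg4dsRED and 90.0% against 71.4% in the pool, so the direction differed between these strain labels. PdgfrbGFP had too few cells without Ngfr to compare. Ret was carried by 1 of the 29 cells with Ngfr, and Ntrk2 by 13. Ntrk3 was carried by 1. Per kilobase of exon, summed counts in cluster 10 reached 188 ± 126 CPM (counts per 1000000 summed counts) for Ngfr, 131 ± 78.8 for Gfra1, 84.7 ± 32.6 for Gfra2, 17.6 ± 2.25 for Ntrk2 and 9.22 ± 9.29 for Ret (n = 3). Exon lengths were taken over all annotated transcripts, which lowers the values of genes with many isoforms.

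Ntrk2 (ENSMUSG00000055254, chromosome 13, 58806569 to 59133970, plus strand) encodes TrkB, the receptor for BDNF, and was the member carried by most cells, 547 of 1753. Counts per gene do not separate its kinase form from truncated forms that lack the kinase. Cluster 6 had mean counts of 256 in C57BL6, 131 in Cspg4dsRED, 225 in the pool and 276 in PdgfrbGFP, and a share of 54.4% ± 18.9. Cluster 8 had 127 in Acta2GFP, 288 in C57BL6, 168 in the pool and 164 in PdgfrbGFP, and a share of 52.2% ± 9.60, lower than cluster 6 in 2 of the 3 strain labels with both. Cluster 10 followed at 39.9% ± 6.31, cluster 5 at 38.9% ± 9.62 and cluster 1 at 36.2% ± 8.92. The shares of these 3 were within the spread of each other. By mean count, cluster 10 was above cluster 5 in both strain labels that held them, by 37.8 ± 7.65 (SD of the differences). The ranges of clusters 8 and 10 overlapped. Of the 2 strain labels with both, PdgfrbGFP had the higher share in cluster 8 (46.6% against 37.5%) and the pool in cluster 10 (47.1% against 43.3%). In mural cells it was 26.4% ± 12.3 (n = 5). Cluster 3, the cluster of Ret, had 19.5% ± 6.21, and the perimysial cluster 9 had 1 carrying cell.

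Ntrk3 (ENSMUSG00000059146, chromosome 7, 78175959 to 78738012, minus strand) encodes TrkC, the receptor for NT-3. It was carried by 15 cells, of which 9 were mural. Mean scaled counts in mural cells were 17.9 in Acta2GFP, 17.9 in Cspg4dsRED, 17.6 in the pool and 12.4 in PdgfrbGFP, and 0 in the 9 cells of C57BL6. The mural values were above those of nearly every other group. Cluster 1 of Acta2GFP was higher still, at 19.6, from 1 carrying cell of 6. Per kilobase of its 30170 exonic bases, mural cells reached 1.17 ± 0.841 CPM (n = 5).

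Ntf3 (ENSMUSG00000049107, chromosome 6, 126101412 to 126166910, minus strand) encodes NT-3 and was the only ligand among the members found in many cells, 232 in all. Mural cells had mean scaled counts of 86.4 in Acta2GFP, 90.3 in Cspg4dsRED, 32.9 in the pool, 58.7 in PdgfrbGFP and 0.910 in C57BL6. The 9 C57BL6 cells had the lowest mean and none carried the gene. Any count was found in 33.3% of them, beside 33.8% in Cspg4dsRED and up to 73.2% in Acta2GFP. The share of carrying mural cells was 21.3% ± 13.6 (n = 5), or 26.6% without C57BL6. Cluster 6 followed at 20.7% ± 11.4 (n = 4), with 110 in C57BL6, 39.0 in Cspg4dsRED, 47.0 in the pool and 38.7 in PdgfrbGFP. Cluster 3 stood at 19.0% ± 2.58, and none of these 3 clusters differed beyond their spread. No cell of cluster 9 carried Ntf3, at 0 of 59, and in cluster 10 the share was 4.17% ± 7.22, from 1 cell. Endomysial cells held 170 of the 232 carrying cells and mural cells 50.

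Bdnf (ENSMUSG00000048482, chromosome 2, 109674700 to 109727007, plus strand) was carried by 10 cells, 8 of them perimysial. Cluster 9 had mean counts of 12.8 in Acta2GFP, 31.9 in the pool, 4.54 in PdgfrbGFP and 0.0843 in C57BL6, from 3 carrying cells. A gene on the opposite strand, Gm45346, overlaps 14.4% of its exonic bases. Gdnf (ENSMUSG00000022144, chromosome 15, 7810846 to 7837575, plus strand) was carried by 2 cells, 1 mural and 1 of cluster 8, and had any count in 21 of 1753 cells. Of 440 cells of cluster 3, which carried Ret and Gfra1, none carried Gdnf, which allows a share of up to 0.682%.

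**Figure D3:**
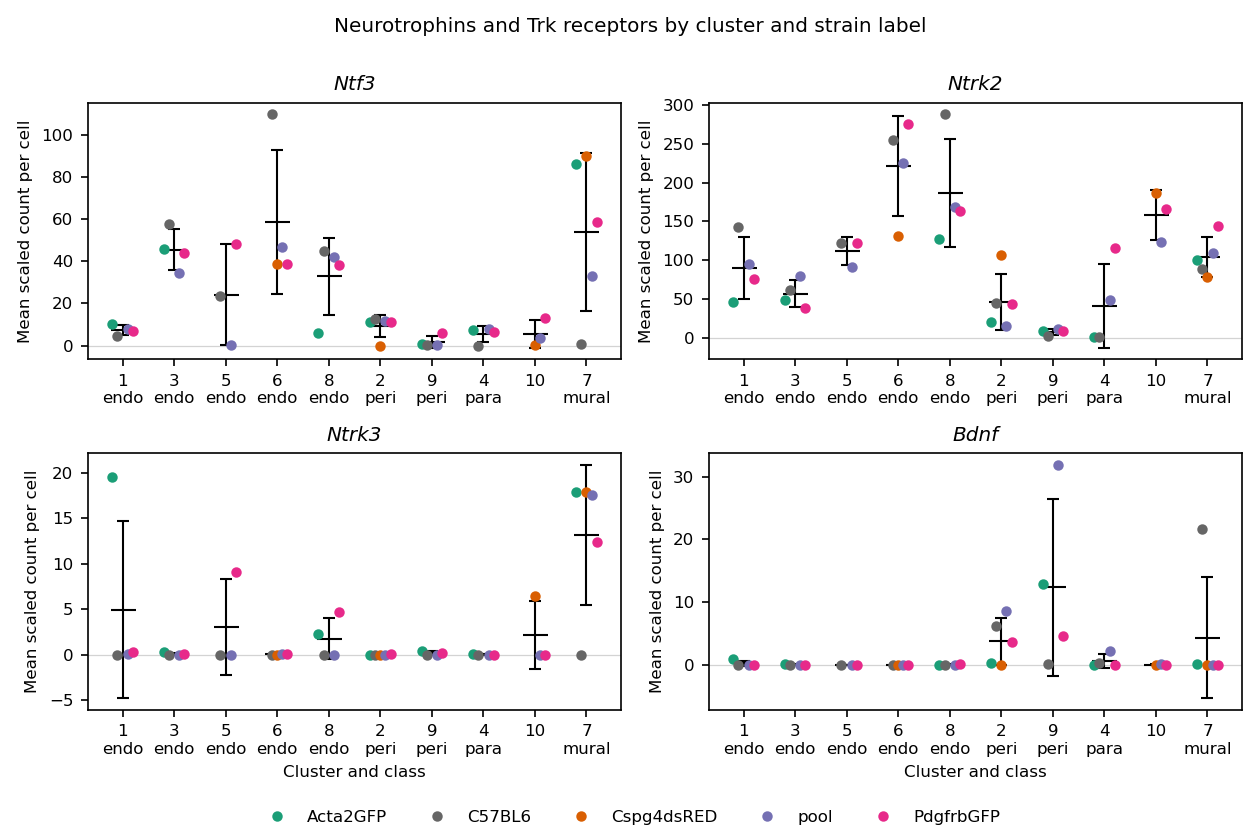
Mean scaled count per cell of Ntf3, Ntrk2, Ntrk3 and Bdnf by cluster, drawn in the same way, on axes of different range. Ntrk2 was highest in clusters 6 and 8, Ntf3 was highest in cluster 6 of C57BL6 (110) and in mural cells of Cspg4dsRED and Acta2GFP, with the pool's mural cells at 32.9, and Ntrk3 was highest in cluster 1 of Acta2GFP and in mural cells of 4 strain labels.

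The question of which members separate mural cells from fibroblasts was put to counts summed by class and strain label, paired within the 5 strain labels, with edgeR's quasi-likelihood test and Benjamini-Hochberg adjustment over 13880 genes. In such sums, fewer cells with a gene and less RNA per cell cannot be told apart. As the classes come from clusters of the same counts, the p-values describe how far the classes stand apart and are not independent evidence that they do. Of all genes tested 15.4% were called at an adjusted p under 0.05, 6.15% higher and 9.27% lower in mural cells. Of the 8 members tested, 2 were lower in mural cells and none was higher. The median log2 fold change of the members was −3.40, against −0.46 over all genes. This median lay between Ngfr and Gfra2, which edgeR did not call. The list was chosen with earlier results of these data known, so the median only describes it. Gdnf did not pass the filter on low counts.

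Ret and Gfra1 were the members called. Ret stood at 1.41 CPM of summed counts in mural cells of Acta2GFP, 1.39 in C57BL6, 7.18 in Cspg4dsRED, 2.22 in the pool and 0.676 in PdgfrbGFP. After TMM scaling the mural values ran from 0.696 to 8.45 with a mean of 2.85, and the fibroblast values from 33.8 to 106 with a mean of 69.1, without overlap. Its log2 fold change was −5.10 ± 0.88 (SE), lower in 5 of 5 strain labels (adjusted p = 0.00563, edgeR). Ret had been singled out for its level in cluster 3, a fibroblast cluster, so this call is not independent evidence. Gfra1 stood at 15.6 CPM in mural cells of Acta2GFP, 0.923 in C57BL6, 0.0945 in Cspg4dsRED, 4.44 in the pool and 1.22 in PdgfrbGFP. After TMM scaling it ran from 0.111 to 14.8 in mural cells and from 77.3 to 148 in fibroblasts, again without overlap. The log2 fold change was −5.86 ± 1.11, lower in 5 of 5 (adjusted p = 0.00837, edgeR). Ntrk2 was near level, at 0.18 ± 0.35, higher in 3 of 5 (adjusted p = 0.806, edgeR), and was −0.04 without the pool.

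Ntf3 had a log2 fold change of 1.21 ± 1.06 with 4 of 5 strain labels higher (adjusted p = 0.535, edgeR, not called), while without C57BL6 it was called, at 1.94. Ntrk3 stood at 3.69 ± 1.58, higher in 4 of 5 with no count in mural cells of C57BL6, and was not called by edgeR (adjusted p = 0.181). DESeq2 called it, at 4.13. Ngfr, at −4.07 ± 1.97, and Gfra2, at −2.74 ± 1.53, were not called by edgeR and were called by DESeq2, at −4.09 and −2.65. The fibroblast sums included cluster 10, whose 62 cells held 7861 Ngfr counts against 1801 in the 1504 other fibroblasts. Those other fibroblasts had a mean of 2.73 scaled counts of Ngfr, against 1.35 in mural cells. Bdnf, at −5.65 ± 2.52, was likewise called only by DESeq2, at −6.31. Its mural value rested on 227 counts from 1 of the 9 C57BL6 cells, and the other strain labels summed to 2 counts. Without C57BL6 it was called by edgeR, at −7.71, and without the strain term its direction turned, to 1.69.

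Among fibroblasts, perimysial and endomysial cells were compared in the same way over 14121 genes. Of these 5.57% were called, 2.32% higher and 3.26% lower in perimysial cells. Of the 6 members that passed the filter, 2 were lower and none was higher. Their median log2 fold change was −2.20, against −0.19 over all genes, which again only describes the chosen list. Ret was at 1.88 CPM in perimysial cells of Acta2GFP, 0.361 in C57BL6, 0 in Cspg4dsRED, 2.04 in the pool and 1.01 in PdgfrbGFP. In endomysial cells it was at 149, 57, 90.5, 156 and 87.8 in that order, with no overlap. The log2 fold change was −6.72 ± 0.57 (adjusted p = 0.000676, edgeR). As Ret had been singled out for its level in cluster 3, an endomysial cluster, this p-value is a description and not independent evidence.

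In perimysial cells Ntrk2 was lower in 5 of 5 strain labels, with a fitted log2 difference of −1.86 ± 0.31 (adjusted p = 0.0129, edgeR). Its CPM of summed counts was 36.8 and 190 in perimysial and endomysial cells of Acta2GFP, 91.3 and 378 in C57BL6, 148 and 313 in Cspg4dsRED, 87.2 and 233 in PdgfrbGFP, and 30.8 and 220 in the pool. After TMM scaling, perimysial values ran from 29.4 to 186 and endomysial values from 184 to 358, so the classes overlapped at the edge although each strain label had the lower value in its perimysial cells. The call was lost without Acta2GFP, at −1.75, without C57BL6, at −1.82, and without the strain term, at −1.61. Gfra1 and Ntf3 were lower in 5 of 5 as well, at −3.15 ± 1.18 and −2.54 ± 0.83, and were not called by edgeR (adjusted p = 0.236 and 0.163), while DESeq2 called both, at −3.13 and −2.56. Gfra2 had the opposite sign, at 1.88 ± 1.17 and higher in 4 of 5 (adjusted p = 0.53, edgeR). The exception was Cspg4dsRED, with 5 counts in 18 perimysial cells, and without it the difference was called, at 2.74. Ngfr differed by 0.18 ± 2.01, and its sign turned without C57BL6, Cspg4dsRED or the pool. Gdnf, Ntrk3 and Bdnf did not pass the filter on low counts.

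Bdnf, the ligand of Ntrk2, had 1386 counts in 31 of 328 perimysial cells and 10 counts in 9 of 1116 endomysial cells. As CPM of summed counts it was at 26.8 in perimysial cells of Acta2GFP, 11.9 in C57BL6, 33.4 in the pool, 8.15 in PdgfrbGFP and 0 in Cspg4dsRED. In endomysial cells it lay between 0 and 0.134, so 4 of 5 strain labels were higher in perimysial cells, and Cspg4dsRED had no count in either class. With no filter it was the third member called, higher in perimysial cells by a log2 fold change of 8.87 ± 1.30 (adjusted p = 0.00695, edgeR), and it was called in the same direction without Cspg4dsRED, at 8.96 (adjusted p = 0.00454, edgeR). These fitted fold changes depend on the prior count, since the endomysial sums were near 0. Without Cspg4dsRED, Bdnf could pass the filter only through its perimysial sums, so that call is not independent evidence. Ntrk3, at −4.01 ± 1.40, and Gdnf, at −0.50 ± 2.53, were not called with no filter (adjusted p = 0.273 and 0.948, edgeR).

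**Figure D4:**
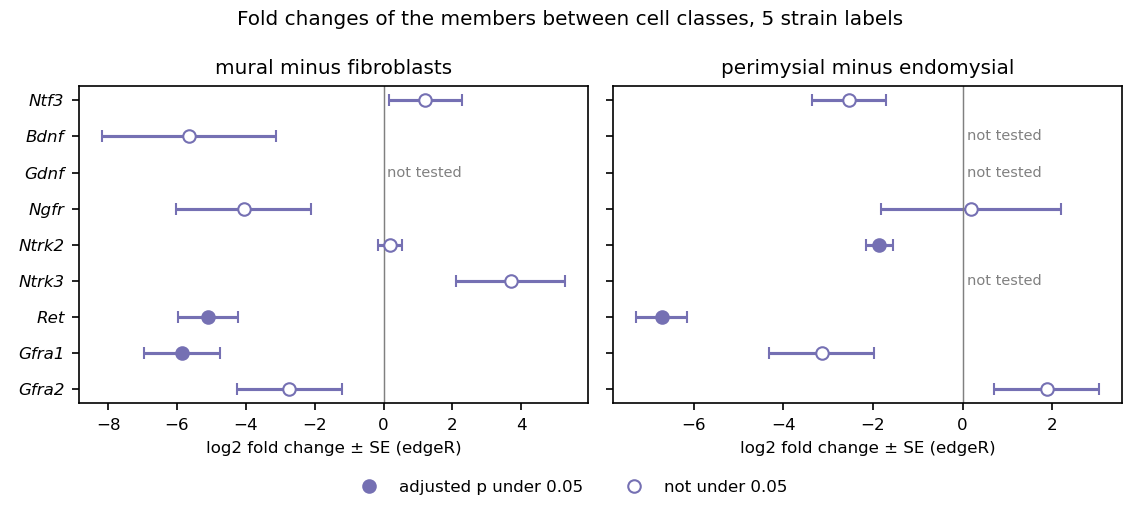
Log2 fold change with its SE from edgeR for each member, mural cells less fibroblasts (left) and perimysial less endomysial cells (right), over 5 strain labels. Filled points have an adjusted p under 0.05: Ret in both panels, Gfra1 at −5.86 on the left and Ntrk2 at −1.86 on the right.

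The wider list of 38 pathway genes held 29 that could be tested between mural cells and fibroblasts, of which 2 were higher and 6 lower in mural cells. Of all 13880 genes tested, 6.15% were higher and 9.27% lower. Sort1, the sorting receptor that binds pro-neurotrophins together with p75, was higher in 5 of 5 strain labels, with a log2 fold change of 4.67 ± 0.54 (adjusted p = 0.000844, edgeR) and a mean of 239 CPM against 11.2. Sorcs2, another receptor of the sortilin family, was lower, at a log2 fold change of −6.08. The convertases Pcsk5 and Pcsk6, which can cleave pro-proteins, were lower, at −6.45 and −6.59, and the adaptors Shc2 and Dok5, at −6.40 and −6.68. Sort1 was singled out after its values were seen.

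Between perimysial and endomysial cells, 28 genes of the wider list were tested, 4 were higher and none was lower. Of all 14121 genes tested, 2.32% were higher and 3.26% lower. Ncam1, an adhesion molecule that can serve as an alternative GDNF receptor, was higher by 4.48 ± 0.52 in 5 of 5 (adjusted p = 0.00276, edgeR), at a mean of 156 CPM against 8.19. Sdc3, a heparan sulfate proteoglycan that binds GDNF, was higher by 2.74 ± 0.43 (adjusted p = 0.0105, edgeR). Gfra4, a co-receptor of the same group as Gfra1, was higher by 2.53 ± 0.55, and Maged1, which binds p75, by 0.68 ± 0.13. In cluster 10, Sdc3 was carried by 34.2% of cells and Sorcs2 by 25.4%, while no cell of that cluster carried Ncam1 or Sort1. Among the other ligands of the list Artn was carried by 40 cells, Nrtn by 9, Gdf15 by 6, Pspn by 1 and Ntf5 by none.

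Soleus, a slow muscle, and gastrocnemius, a faster one, had been collected apart in the pool and in PdgfrbGFP. The labels that name the muscle allow a comparison of the same cell class with 2 strain labels, and in the pool each muscle lay on a plate of its own, so muscle and plate cannot be told apart there. In endomysial cells edgeR called 0 of 16337 genes (0%), with 807 at an unadjusted p under 0.05, and DESeq2 called 115, none of them a member. Of the 6 members tested, 1 had an unadjusted p under 0.05: Ngfr, at a log2 fold change of −3.86 and 0.155 CPM against 2.51. It was not called (adjusted p = 0.967, edgeR). Its counts were few, and 1 of the 302 endomysial cells of the pool carried it. In cluster 3 edgeR called 0 of 13774 genes (0%), with 497 at an unadjusted p under 0.05, and DESeq2 called 88, again without a member.

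For cluster 3, Ret in the pool was at 271 CPM in soleus and 243 in gastrocnemius, while PdgfrbGFP had 180 and 118. It was higher in soleus in both, by a log2 fold change of 0.28 ± 0.29 (adjusted p = 1.0, edgeR). Gfra1 in the same cells was at 190 and 361 in the pool, while PdgfrbGFP had 187 and 223, lower in soleus in both, at −0.70 ± 0.29. Over all endomysial cells the sign of the difference was opposite in the 2 strain labels for both genes, which was not tested. Ret was at 137 in soleus and 173 in gastrocnemius of the pool but at 119 and 46.5 in PdgfrbGFP, and Gfra1 was at 111 and 240 in the pool but at 112 and 77.4 in PdgfrbGFP. The gastrocnemius cells of PdgfrbGFP included 19 of cluster 3 among 112 endomysial cells, and those of the pool 116 among 194. Ntrk2 in endomysial cells was lower in soleus in both strain labels, at 200 against 238 and at 199 against 278 (log2 fold change −0.46 ± 0.18), and was not called (adjusted p = 0.967, edgeR). Median depth was 478544 counts in soleus and 290985 in gastrocnemius of the pool, and 164594 and 130164 in PdgfrbGFP.

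**Figure D5:**
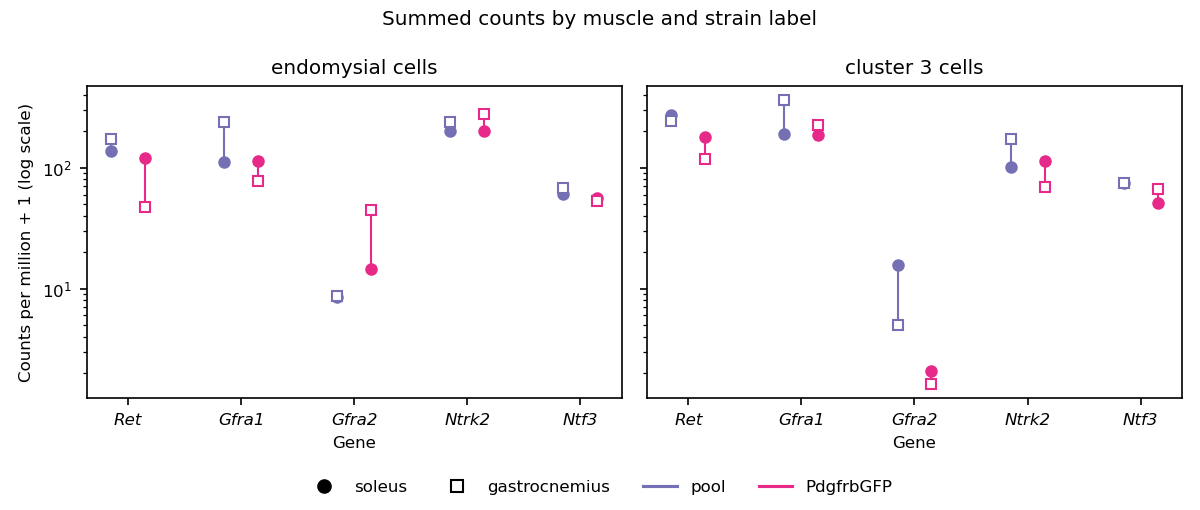
CPM of summed counts plus 1 (log scale) of 5 members in soleus (filled circles) and gastrocnemius (open squares) of the pool and PdgfrbGFP, for all endomysial cells (left) and for cluster 3 (right), with a line joining the muscles of a strain label. Gfra1 in cluster 3 was lower in soleus in both strain labels, and the strain labels had opposite signs for Ret and Gfra1 in endomysial cells.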

How the data were processed

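Smart-seq2 libraries of 1753 sorted cells were read as the raw counts per gene that the authors deposited. Reads had been mapped to GRCm38 (mm10) with TopHat2 and Bowtie or Bowtie2 and counted with featureCounts; the annotation release and strand setting are not given in the sources used here. The authors had removed cells with few counts or genes and, as potential doublets, cells with very many genes. Of 1754 columns, 1 matched no label and was not used. Spike-ins (ERCC, 1.31% of counts) were left out of depth. Identifiers were named with GENCODE M21.

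Counts were scaled to 500000 per cell for levels and shares. Raw counts of at least 3 cells were summed by class and strain label and tested with edgeR 4.0.16 in R 4.3.3 (TMM, filterByExpr, quasi-likelihood test, strain label as block) with Benjamini-Hochberg adjustment, after tests on simulated data. Alternatives were DESeq2 1.42.0, RLE factors, no filter, no strain term, plates as units and each strain label left out; shares were recomputed at 20 scaled counts, at any count, pooled, and on cells thinned to 50000 counts (10 or more of the gene; 4 shallower cells dropped). Exact binomial intervals and limits from 0 (3 counts) cover counting error only, since reads carry no molecular identifiers.

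All 9 members are named, with called genes of the wider list (up to 6 by size of change, some of which are not reported here) and the 5 genes of highest Pearson r to Ngfr and Ret over groups of at least 5 cells, among genes reaching a group mean of 20; those given for Gfra1 and Gfra2 were added after the data were seen. Members and lists were chosen with earlier results of these data known.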

Additional observations from a re-analysis of the deposited data

Results flagged for a closer look

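Among 25 sets of strain labels tested for a value far from the others, 2 were found, and chance gives about 1 in 20. Bdnf in mural cells stood at a mean of 21.6 scaled counts in C57BL6, from 1 of 9 cells, and at 0 to 0.094 in the other 4 strain labels. Ntf3 in cluster 6 stood at 110 in C57BL6 and at 38.7 to 47.0 in the other 3.

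Of 11 differences between muscles that could be computed in both strain labels, 4 had opposite signs in PdgfrbGFP and in the pool, and these differences between strain labels were not tested. In endomysial cells the log2 fold change, soleus less gastrocnemius, of Ret was 1.34 in PdgfrbGFP and −0.34 in the pool, a difference of 1.68. That of Gfra1 was 0.53 and −1.11, a difference of 1.63, and that of Ntf3 0.10 and −0.17, a difference of 0.27. In cluster 3, Ntrk2 stood at 0.72 and −0.75, a difference of 1.46.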

How the results depend on the processing

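Of 340 recomputed values, 278 kept their direction and side of the threshold or moved by less than the spread, 37 moved, 11 gained and 3 lost a call, and 11 turned sign. Calls of Ret and Gfra1 in mural cells and of Ret in perimysial cells held under every alternative listed here. With any count in place of 100 scaled counts, shares were 26.3% for Bdnf in cluster 9, 48.7% for Ntf3 and 13.3% for Ntrk3 in mural cells, 58.3% for Gfra2 in cluster 10, 62.0% for Ret in cluster 3 and 79.2% for Ntrk2 in cluster 6. At 20 scaled counts they were 47.7% for Gfra2, 43.7% for Ret and 11.2% for Ntrk3. DESeq2 called 6 members and 4336 genes (edgeR: 2 and 2140) between mural cells and fibroblasts, 4 and 2068 (edgeR: 2 and 787) between perimysial and endomysial cells, and 115 and 88 genes between muscles in endomysial cells and cluster 3 (edgeR: 0), where edgeR without a filter called 16. Plates as units gave 1294 perimysial calls, and the fit with no strain term, which drops the block, called 1 member there.

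Leaving out 1 strain label gave 2 to 4 members and 1230 to 2257 genes for mural cells (4 without C57BL6, 1230 without PdgfrbGFP). For perimysial cells it gave 1 to 5 members and 395 to 1416 genes: 1 member without Acta2GFP or C57BL6, 5 without Cspg4dsRED, 395 genes without C57BL6, 426 without PdgfrbGFP, 436 without the pool and 1416 without Cspg4dsRED. Signs turned for Bdnf in mural cells with no strain term (1.69), for Ntrk2 in mural cells (−0.037 without the pool, up to 0.52) and for Ngfr in perimysial cells (−0.66 with no strain term, −1.11 to 1.43 over strain labels left out, with −0.21 without Cspg4dsRED and −0.72 without the pool). With 1 strain label alone, muscle differences turned for Ntf3 (0.10), Gfra1 (0.53) and Ntrk2 in cluster 3 (0.72) in PdgfrbGFP and for Ret (−0.34) in the pool. Alternatives for receptor pairs were chosen after seeing the data: the share with Gfra1 in cells with Ngfr less other cells ran from −11.0 percentage points (without the pool) to 18.6 (without Cspg4dsRED). The causes were not tested. Cells with 46097 counts carry few reads of a low gene, and a strain label held as few as 3 cells of a cluster.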
